A study of Mus musculus with 30 samples.

Results

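CD8 single-positive thymocytes (CD8 SP) are thymus T cells sorted for CD8 and against CD4. They were compared between mice with a conditional Prmt5 knockout (CKO) and wild type mice (WT). The members were the 6 libraries of this sort, 3 CKO and 3 WT, out of 30 libraries in the study, and all genes expressed in them were tested. The CKO mice carried CD4-Cre together with floxed alleles (CD4-Cre+ PRMT5fl/fl) and the WT mice are labelled wild type, all on C57BL/6. Neither age, sex nor any treatment is given. With no CD4-Cre group on unfloxed Prmt5, what Cre itself does and what losing Prmt5 does cannot be told apart. The other libraries came from double-positive (DP) and CD4 SP thymocytes and from spleen CD4 and CD8 T cells, again 3 CKO and 3 WT in each. RNA was poly(A)-selected and measured as reads per gene, given below as CPM, the count of a gene scaled to the TMM-adjusted size of its library.

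Prmt5 encodes the main enzyme for symmetric dimethylation of arginine, which acts with its partner Wdr77 on histones and on the Sm proteins of the splicing machinery. The Cd4 promoter that drives Cre becomes active as thymocytes reach the DP stage. A CD8+ CD4- gate on thymus can hold mature cells selected on MHC class I and also cycling immature cells that carry CD8 before the DP stage. Mature thymocytes respond to interferons made in the thymus: interferon receptors activate Janus kinases and, through them, transcription factors that switch on genes by a short response element near their start sites.

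Total counts ran from 28721963 to 35353441 in the 3 CKO libraries and 3 WT libraries together, and 14911 of 46095 gene symbols passed the filter on low counts. Xist, which is expressed from the inactive X chromosome of female cells, had 4.33, 2152 and 1923 CPM in CKO mice 1, 2 and 3, against 3.77, 4.33 and 5.28 CPM in WT mice. Ddx3y, a gene of the Y chromosome, had 187, 0.492 and 0.695 CPM in the CKO mice, against 206, 180 and 160 CPM in the WT mice. By these genes CKO mice 2 and 3 were female, and CKO mouse 1 and all WT mice were male. The first principal component, with 32.5% of the variance, set CKO 2 and CKO 3 (18.8 and 13.7) apart from CKO 1 (-3.76) and from the WT libraries (-10.7 to -8.62). Sex and genotype are therefore in part confounded, so each call below stands beside its values in the male CKO mouse.

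The sort label was checked against its markers. Cd8a, a chain of the CD8 co-receptor, had 861, 989 and 838 CPM in CKO cells, against 840, 929 and 867 CPM in WT cells. Cd8b1, the other chain, had 471, 462 and 402 CPM in CKO cells, against 446, 407 and 410 CPM in WT cells. Both genes overlapped between the genotypes. Mki67, a marker of cycling cells, had 2496, 2559 and 2419 CPM in CKO cells, against 2161, 2310 and 2359 CPM in WT cells, with a log2 fold change of 0.13 ± 0.04 (SE) and an adjusted p of 0.283. Rag1, which cuts receptor genes for rearrangement and is switched off in mature cells, had 899, 855 and 789 CPM in CKO cells, against 775, 709 and 787 CPM in WT cells. Ptcra, the pre-T cell receptor chain of immature thymocytes, had 44.8, 42.3 and 35.1 CPM in CKO cells, against 47.7, 39.2 and 41.8 CPM in WT cells. Cd8a alone does not set this sort apart. It had 2608 to 2727 CPM in WT DP and 1086 to 1532 CPM in WT CD4 SP libraries. Cd4, at 36.5 to 39.0 CPM in WT libraries here and 1590 to 1679 CPM in WT DP libraries, goes with the gate. Mki67 (963 to 1484 CPM) and Ptcra (22.6 to 31.4 CPM) were lower in WT DP libraries than here. Runx3, a factor of the CD8 lineage, had 3.10 to 5.99 CPM in WT libraries here and 5.35 to 7.14 CPM in WT spleen CD8. It had 60.9 to 68.8 CPM in WT CD4 SP libraries. Counts of spleen CD8 cells cover 46095 gene symbols, as those here do. DP and CD4 SP reads were counted over another set of gene symbols, so levels may not compare. Genes of cycling and of immature thymocytes were present in every library. In bulk samples, fewer cells of a type and less RNA per cell cannot be told apart.

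Markers of other cell types were summed in each library. The summed level of 7 B cell markers was 17.4 to 30.4 CPM in CKO libraries and 17.2 to 33.8 CPM in WT libraries, with 1 of the 7, Ighm, at 0 in all libraries. The sum over 12 myeloid markers was 18.2 to 20.98 CPM in CKO and 13.3 to 21.3 CPM in WT libraries, and over 6 erythroid markers 0.369 to 1.25 CPM in CKO and 0.409 to 1.31 CPM in WT libraries. The sum over 9 dendritic cell markers was 206 to 261 CPM in CKO and 222 to 318 CPM in WT libraries. The sum over 9 stromal and epithelial markers was 125 to 140 CPM in CKO and 132 to 140 CPM in WT libraries. The sum over 8 NK and innate-like markers was 164 to 182 CPM in CKO and 139 to 157 CPM in WT libraries, with 2 of the 8 genes, Tcrg-C1 and Tcrg-C4, at 0 in all libraries. The sum over 8 genes of immature thymocytes (double-negative and immature single-positive cells) was 3333 to 3444 CPM in CKO and 3081 to 3266 CPM in WT libraries. The last 2 sums did not overlap between the genotypes, and Mki67 made up most of that of the immature thymocytes. Their part in the results below was not tested.

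Prmt5 RNA was lower in CKO cells by a small amount. Prmt5 (chromosome 14, 54507182 to 54517470) had 117, 117 and 115 CPM in CKO mice, against 150, 135 and 148 CPM in WT mice. Every CKO library lay below every WT library. The log2 fold change was -0.31 ± 0.05 and the adjusted p 0.0450. None of the 6 fits on 5 libraries kept the call (adjusted p 0.0541 to 0.164). The counts cover the whole gene and the floxed exons are not given, so reads from exons outside the deletion count in full. That holds for the other populations as well, and its part in the size of the drop was not tested. Of the enzymes and cofactors of arginine methylation, 12 of 13 listed genes were tested. Prmt5 was the 1 gene called lower, 11 of the 12 had negative estimates and the median was -0.08, where the median of all genes tested was -0.0024. Prmt1, the main enzyme for asymmetric dimethylation, had 204, 212 and 225 CPM in CKO cells, against 232, 231 and 235 CPM in WT cells (-0.12 ± 0.04, adjusted p = 0.355). Riok1, an adaptor that brings substrates to Prmt5, had 70.3, 68.5 and 74.8 CPM in CKO cells, against 64.9, 60.4 and 65.1 CPM in WT cells (0.16 ± 0.06, adjusted p = 0.342). Wdr77 had 81.0, 81.7 and 89.1 CPM in CKO cells, against 87.9, 91.2 and 89.7 CPM in WT cells and overlapped between them. Among 18 Sm and snRNP genes, none was called by edgeR, 1 had an unadjusted p under 0.05 (Snrpg, a core Sm protein, at -0.20 ± 0.06, adjusted p = 0.281) and the median was -0.02.

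Across all genes 5 were called higher (0.0335% of those tested) and 12 lower (0.0805%) in CKO cells, by edgeR's quasi-likelihood test at an adjusted p of 0.05. Genes of the interferon response were the largest group among those that fell, among them the transcription factor Irf7 and the effectors Oas2, Oas3 and Ifi203. Rnf213, also lower, is itself induced by interferon but was in none of the interferon gene lists used below. The other called genes covered Notch signalling (Dtx1), the cytoskeleton (Tubb3, Pdlim4, Kifc1), RNA splicing (Mbnl1) and other or unclear roles (Btbd11, Tspan9, Tmie, Ubfd1, Gm33707). In all 17 called genes, the male CKO library lay on the same side of the WT libraries as the female CKO libraries. The genes were called on these same libraries, so their shared side is no independent support. With sex as a covariate 16 of the 17 genes, all but Gm33707, lost their call while keeping their direction. Without WT 2 or without WT 3, 1 gene was called higher and none lower, and without WT 1, 8 higher and 40 lower. Dropping CKO 1 gave 11 higher and 19 lower, dropping CKO 2 gave 2 higher and 5 lower, and dropping CKO 3 gave 3 higher and 9 lower.

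**Figure D1:**
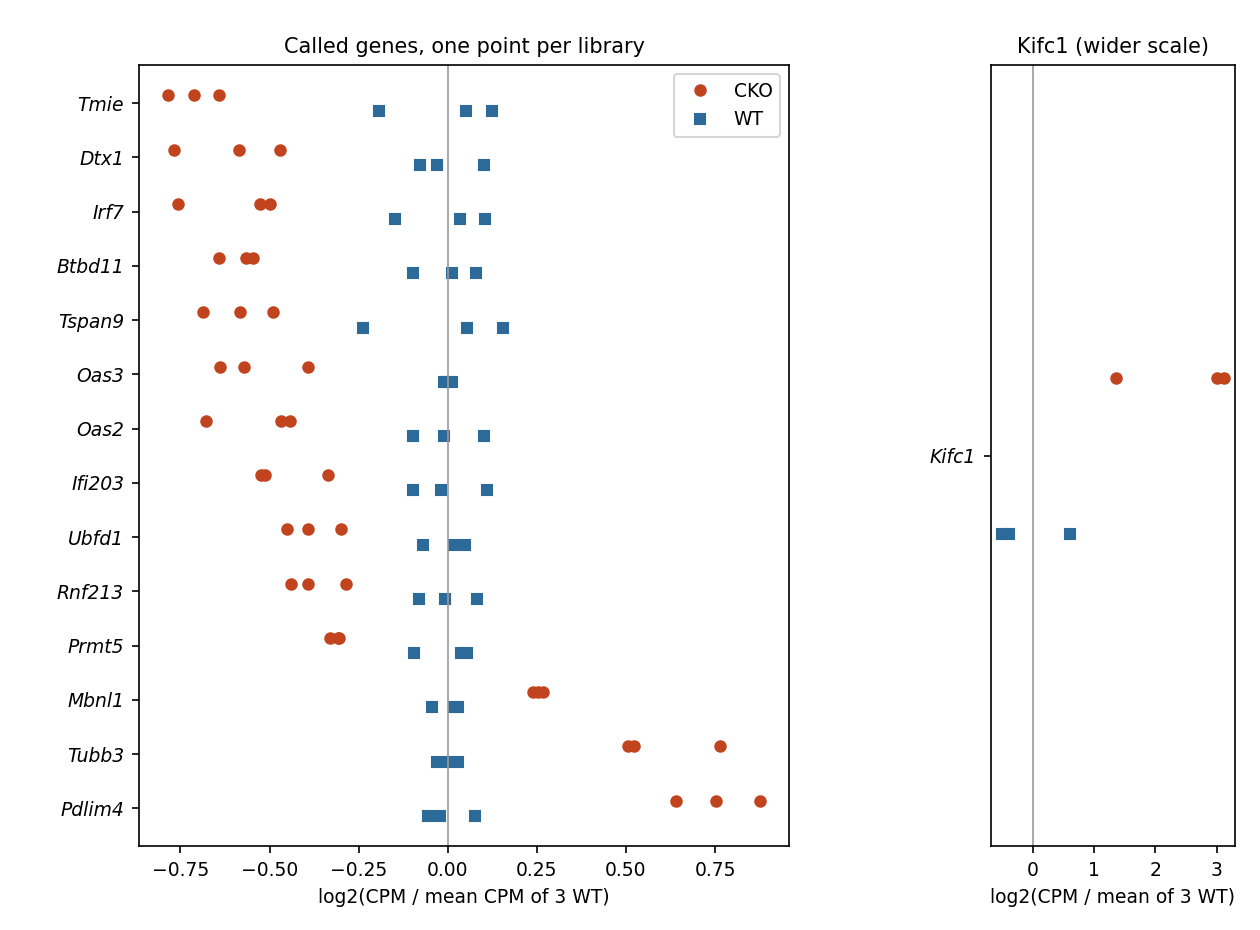
Level of 15 called genes in each thymus CD8 SP library, as log2 of CPM over the mean CPM of the 3 WT libraries, with CKO libraries as circles above WT libraries as squares in each row. The genotypes do not overlap in any row, and the lowest of the 3 CKO values of Kifc1 (6.45 CPM, in CKO 2) stands far from the other two. Gm33707 is left out because 2 of its WT libraries are at 0.

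Of 59 tested interferon-induced sensors and antiviral effectors, 0 were called higher and 3 lower. The signs were lopsided: 56 had negative estimates, 37 had an unadjusted p under 0.05, all of them negative (5.37% of all genes tested), and in 34 every CKO library lay below every WT library (7.68% of all genes). The median log2 fold change was -0.28, beside -0.0024 for all genes tested. With sex as a covariate that median was -0.31, and from the male CKO mouse alone against the WT mice it was -0.30. DESeq2 called 19 of these genes lower, beside 124 of 24816 over all genes. The list was chosen with earlier results of these data known.

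Irf7 (chromosome 7, 141263183 to 141266499), which amplifies type I interferon responses, had 37.2, 37.97 and 31.7 CPM in CKO cells, against 48.4, 57.6 and 54.9 CPM in WT cells (-0.59 ± 0.09, adjusted p = 0.0315). Of 20 tested genes of the receptor and signalling list, 2 were called lower, Irf7 among them, and 15 had negative estimates. The median of the list was -0.09, or 0.0014 with sex as a covariate. Stat2, a transcription factor activated by type I interferon receptors, had 65.4, 56.9 and 51.7 CPM in CKO cells, against 61.1, 65.7 and 57.3 CPM in WT cells. Irf9, its DNA-binding partner, had 61.0, 50.7 and 50.2 CPM in CKO cells, against 64.7, 64.0 and 54.6 CPM in WT cells. Both overlapped between the genotypes.

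Oas3 and Oas2 are oligoadenylate synthetases, which sense double-stranded RNA and activate RNase L. Oas3 (chromosome 5, 120753098 to 120777684) had 34.9, 39.5 and 33.3 CPM in CKO cells, against 51.7, 52.2 and 51.4 CPM in WT cells. It fell by 0.53 ± 0.07 on the log2 scale (adjusted p = 0.0292). Oas2 (chromosome 5, 120730333 to 120749886) had 27.9, 28.4 and 24.1 CPM in CKO cells, against 36.1, 41.4 and 38.4 CPM in WT cells (-0.53 ± 0.08, adjusted p = 0.0450). The lowest coordinates of the 2 genes are 22765 bases apart and those of Oas2 and the called gene Dtx1 50130 bases apart, and 27 genes were tested within 1 Mb of Dtx1. Ifi203 (chromosome 1, 173920400 to 173942866), an interferon-induced protein of the PYHIN family of nucleic acid sensors, had 69.5, 61.0 and 61.4 CPM in CKO cells, against 82.0, 94.6 and 86.5 CPM in WT cells (-0.45 ± 0.07, adjusted p = 0.0422). These families have near-identical members, so reads may be shared between paralogs. Among genes that missed the threshold, Ifit3, an antiviral RNA-binding protein, had 6.18, 7.13 and 6.61 CPM in CKO cells, against 9.70, 15.4 and 14.5 CPM in WT cells (-0.99 ± 0.17, adjusted p = 0.0625). Mx1, a dynamin-like antiviral GTPase, had 6.49, 6.76 and 5.39 CPM in CKO cells, against 8.82, 10.99 and 11.7 CPM in WT cells (-0.75 ± 0.15, adjusted p = 0.0894). Both genes were below every WT library in every CKO library.

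The bases before the start sites of Oas3 and Ifi203 are shown because both genes were called lower and hold the core of the interferon-stimulated response element, spelled GAAA, any 2 bases (NN), then GAAA, or on the other strand TTTC, any 2 bases (NN), then TTTC. The sequences are RefSeq's for GRCm38.p6, 250 bases up to the start site, 5′ to 3′ along the gene, with the motif in capitals. The Oas3 window is chr5:120777660-120777909 and the Ifi203 window chr1:173942493-173942742, both on the minus strand. The motif begins 75 bases before the start of Oas3 and 35 bases before that of Ifi203. RefSeq's other Ifi203 window does not hold these letters.
Oas3: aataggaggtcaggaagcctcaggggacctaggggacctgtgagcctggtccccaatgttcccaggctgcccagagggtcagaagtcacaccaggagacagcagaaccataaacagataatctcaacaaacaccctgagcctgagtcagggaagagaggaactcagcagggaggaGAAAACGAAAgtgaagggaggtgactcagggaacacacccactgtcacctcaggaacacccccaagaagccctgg
Ifi203: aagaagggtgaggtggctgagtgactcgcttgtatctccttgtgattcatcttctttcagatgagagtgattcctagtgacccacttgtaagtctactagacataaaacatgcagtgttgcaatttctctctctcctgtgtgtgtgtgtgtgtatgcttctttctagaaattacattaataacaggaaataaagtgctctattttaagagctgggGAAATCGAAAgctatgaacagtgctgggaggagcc

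Both strands of every window were searched. The motif was in 978 of 32851 windows (2.98%), in 328 of 10121 tested genes with a window (3.24%), and in 31 of 82 genes of the 3 interferon lists that had one (37.8%). Of the 12 genes called lower, 10 had a window, and the motif was in those of Oas3 and Ifi203 only. Among the interferon genes, the 31 with the motif had a median log2 fold change of -0.31, with 29 negative estimates. The 51 without it had a median of -0.18, with 42 negative estimates, so genes without these letters in the window also had mostly negative estimates. The next 6 motif-holding genes in order of p, none of them called, are set out below as 30 bases with the motif in capitals, on the gene's strand.
Ifit3: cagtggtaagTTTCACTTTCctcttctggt
H2-T23: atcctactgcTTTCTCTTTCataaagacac
B2m: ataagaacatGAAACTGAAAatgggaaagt
Trim30a: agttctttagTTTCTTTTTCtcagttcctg
Ifit1: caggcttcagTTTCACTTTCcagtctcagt
Trim30d: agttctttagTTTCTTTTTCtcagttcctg
These lie at chr19:34583363-34583392 (plus strand), chr17:36032806-36032835 (minus), chr2:122147538-122147567 (plus), chr7:104465210-104465239 (minus), chr19:34640775-34640804 (plus) and chr7:104507871-104507900 (minus). B2m holds the motif in the GAAA orientation and the others in the TTTC orientation. The 30 bases of Trim30a and Trim30d are the same, and how reads shared by these 2 paralogs were counted is uncertain. A match describes letters and is not a measured binding site.

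**Figure D2:**
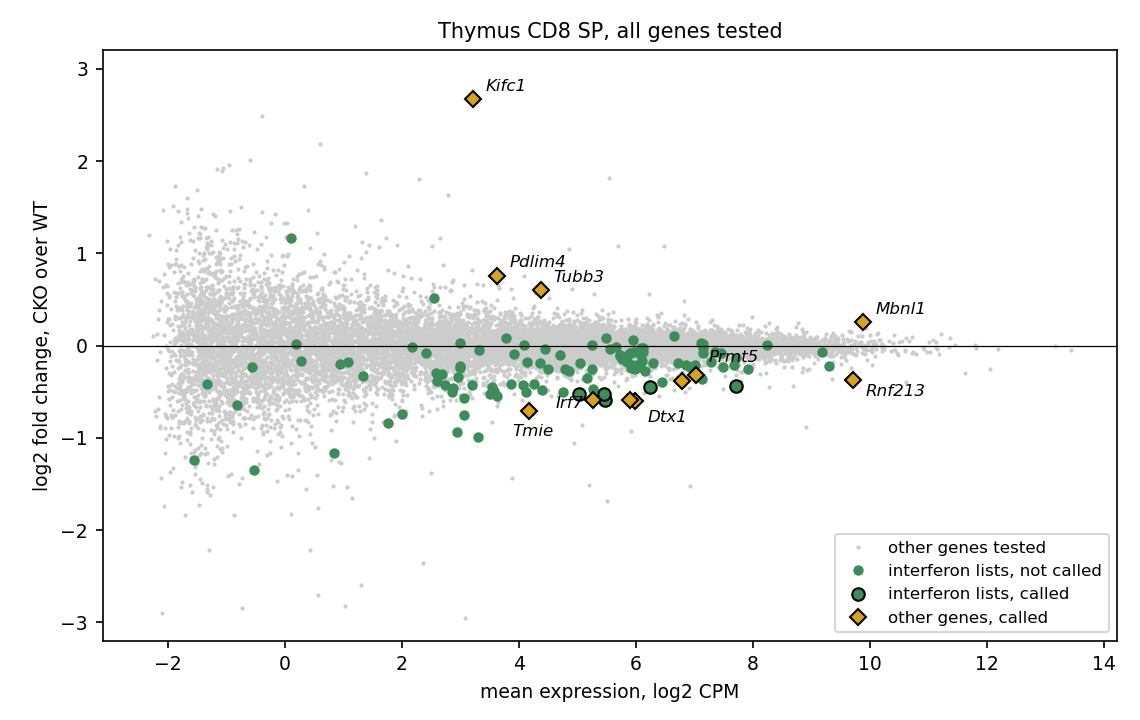
Log2 fold change of CKO over WT against mean expression (log2 CPM) for the genes tested in thymus CD8 SP, with the genes of the 3 interferon lists in green and called genes outlined in black. Most interferon genes lie below the zero line across the range of expression, and 2 genes lie outside the vertical axis.

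Genes induced mainly by interferon gamma and of MHC class I were tilted the same way. Of 28 tested, 14 had an unadjusted p under 0.05, 13 of them negative (5.37% of all genes tested). None of the 28 was called by edgeR, 23 had negative estimates and the median was -0.19. DESeq2 called 3 of them lower, beside 124 of 24816 over all genes. B2m, the light chain of MHC class I, had 595, 586 and 573 CPM in CKO cells, against 703, 699 and 644 CPM in WT cells (-0.22 ± 0.04, adjusted p = 0.0913). H2-T23, a nonclassical class I heavy chain, had 131, 123 and 112 CPM in CKO cells, against 146, 173 and 153 CPM in WT cells (-0.36 ± 0.07, adjusted p = 0.0894). Neither gene overlapped between the genotypes.

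Dtx1 (chromosome 5, 120680203 to 120711867), a ubiquitin ligase that Notch induces in thymocytes, had 50.8, 55.1 and 44.9 CPM in CKO cells, against 74.8, 81.9 and 72.4 CPM in WT cells. It fell by 0.60 ± 0.08 on the log2 scale (adjusted p = 0.0265). Of 24 tested Notch pathway genes it was the 1 called, and the median of the list was -0.07. Mfng, a glycosyltransferase that modifies Notch receptors, had 50.7, 53.7 and 47.8 CPM in CKO cells, against 57.5, 57.5 and 56.7 CPM in WT cells (-0.17 ± 0.06, adjusted p = 0.332). Il2ra, a Notch-responsive gene of double-negative cells, had 25.1, 14.7 and 22.2 CPM in CKO cells, against 39.3, 17.3 and 33.9 CPM in WT cells, and overlapped between them.

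Rnf213 (chromosome 11, 119389950 to 119487418), a giant ubiquitin ligase that acts in defence against microbes and is itself induced by interferon, had 780, 726 and 702 CPM in CKO cells, against 900, 1007 and 946 CPM in WT cells (-0.37 ± 0.05, adjusted p = 0.0292). Btbd11 (chromosome 10, 85384971 to 85660292), which encodes an ankyrin repeat and BTB domain protein, had 29.6, 31.6 and 31.2 CPM in CKO cells, against 43.2, 48.8 and 46.5 CPM in WT cells (-0.58 ± 0.07, adjusted p = 0.0167). Tmie (chromosome 9, 110865687 to 110880073), known as a part of the mechanotransduction channel of inner ear hair cells, had 14.4, 13.1 and 13.7 CPM in CKO cells, against 19.7, 23.3 and 24.5 CPM in WT cells. It had the largest drop among the genes called lower, at -0.71 ± 0.10 (adjusted p = 0.0292). Tspan9 (chromosome 6, 127961396 to 128143578), a tetraspanin membrane protein, had 44.5, 51.0 and 47.8 CPM in CKO cells, against 60.7, 79.8 and 74.3 CPM in WT cells (-0.58 ± 0.09, adjusted p = 0.0450). Ubfd1 (chromosome 7, 122067095 to 122082199) had 91.7, 95.7 and 102 CPM in CKO cells, against 130, 127 and 120 CPM in WT cells (-0.38 ± 0.05, adjusted p = 0.0308). In each of these genes the CKO libraries were closer to each other than to any WT library.

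Among the genes that rose, Pdlim4 (chromosome 11, 54054928 to 54069032), a PDZ and LIM domain protein of the actin cytoskeleton, had 15.4, 16.8 and 14.3 CPM in CKO cells, against 9.67, 9.03 and 8.82 CPM in WT cells (0.76 ± 0.10, adjusted p = 0.0292). Tubb3 (chromosome 8, 123411553 to 123422015), a beta tubulin best known from neurons, had 23.4, 28.0 and 23.7 CPM in CKO cells, against 16.1, 16.5 and 16.8 CPM in WT cells (0.60 ± 0.09, adjusted p = 0.0315). Of 12 tested tubulin genes Tubb3 was the 1 called, 10 had positive estimates, and in 5 every CKO library lay above every WT library (7.74% of all genes tested). Tubb2a had 132, 114 and 124 CPM in CKO cells, against 107, 97.4 and 110 CPM in WT cells (0.24 ± 0.06, adjusted p = 0.206).

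Mbnl1 (chromosome 3, 60472559 to 60629750), a regulator of alternative splicing, had 1015, 1035 and 1026 CPM in CKO cells, against 834, 876 and 869 CPM in WT cells. It rose by 0.25 ± 0.04 on the log2 scale (adjusted p = 0.0315), the smallest change among the called genes, with little spread within either genotype. Its paralog Mbnl3 had 310, 340 and 332 CPM in CKO cells, against 311, 309 and 314 CPM in WT cells and overlapped between them. Of 14 tested Mbnl, Celf and other splicing regulators, Mbnl1 was the 1 called. Gm33707, annotated as a pseudogene (chromosome 3, 60769583 to 60771638) whose lowest coordinate is 297024 bases from that of Mbnl1, had 2.56, 2.46 and 1.91 CPM in CKO cells, against 0.0304, 0 and 0 CPM in WT cells. The CKO libraries held 226 of its counts and the WT libraries 1 (adjusted p = 8.7e-04), and the fitted log2 value of 7.35 rests on that 1 count and is no bound. It kept its call in every alternative fit that gave it an adjusted p, and DESeq2 gave it none.

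Kifc1 (chromosome 17, 33875664 to 33890633), a kinesin motor of the mitotic spindle, had 20.1, 6.45 and 21.7 CPM in CKO cells, against 1.76, 3.83 and 1.91 CPM in WT cells (2.67 ± 0.42, adjusted p = 0.0450). Its close paralog Kifc5b had 92.9, 88.8 and 91.9 CPM in CKO cells, against 76.3, 85.8 and 86.0 CPM in WT cells, so the split of reads between the pair is uncertain. The call of Kifc1 remained in 1 of 6 fits with a library left out. Within 1 Mb of Kifc1, 45 genes were tested and 9 had an unadjusted p under 0.05, beside 1548 of 14911 over all genes. Of the 45, 5 had an absolute log2 fold change over 1, a count not set beside all genes. One of them, Wdr46, a protein of ribosome assembly, had 3.31, 0.829 and 0.835 CPM in CKO cells, against 8.79, 9.85 and 7.29 CPM in WT cells (-2.35 ± 0.41, adjusted p = 0.0665). Wdr46 was picked out after its values were seen.

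**Figure D3:**
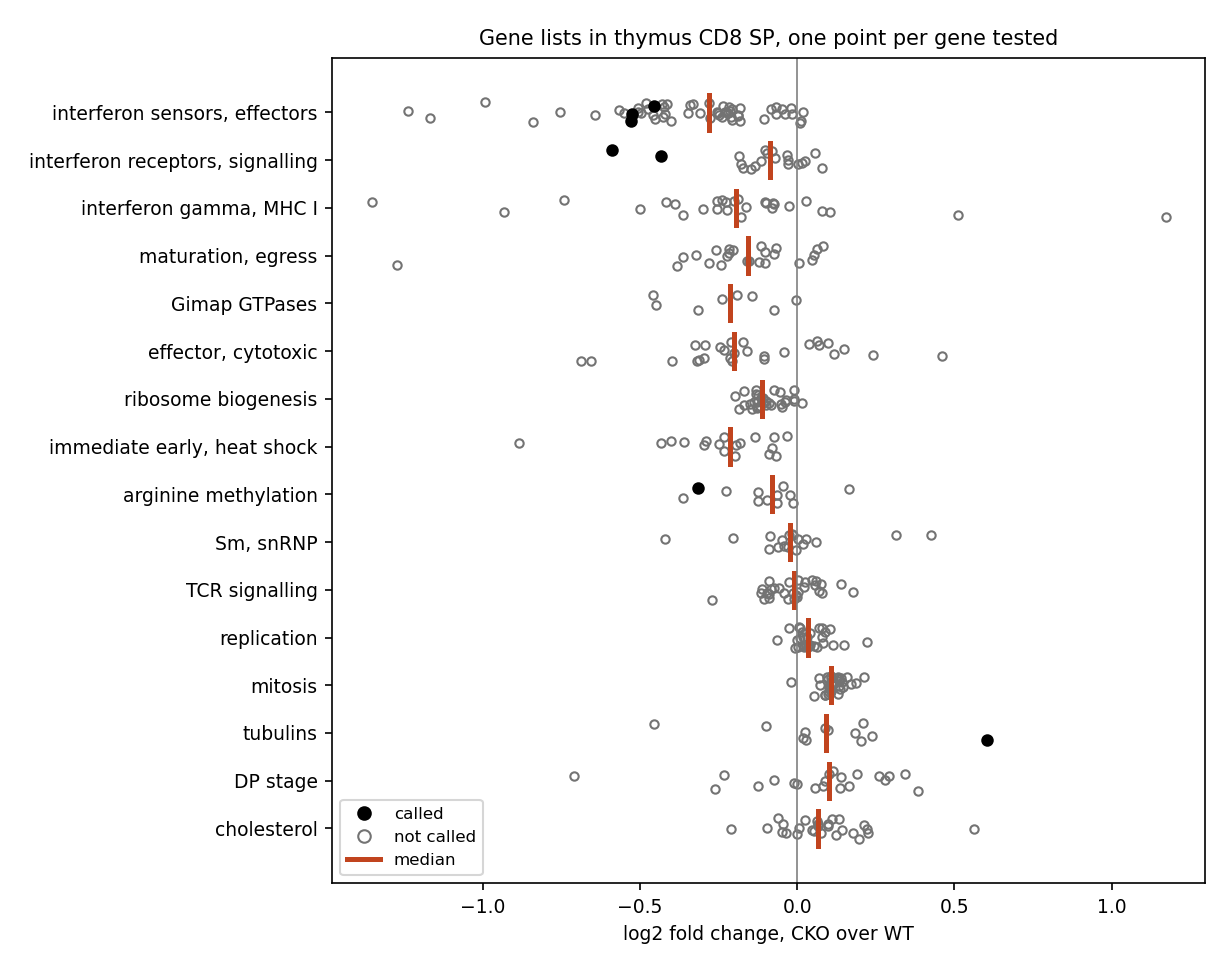
Log2 fold changes of CKO over WT for the tested members of 16 gene lists in thymus CD8 SP, with called genes filled, the others open and the list median as a bar. The interferon, Gimap, maturation and ribosome biogenesis lists lie to the left of 0 and the mitosis, tubulin and DP stage lists to the right, with few filled points in any of them.

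Genes that mark maturing thymocytes and their exit from the thymus had mostly negative estimates. Of 24 tested, none was called by edgeR and 9 had an unadjusted p under 0.05, all negative (5.37% of all genes tested). In 7 every CKO library lay below every WT library (7.68% of all genes tested), and the median was -0.16. DESeq2 called 6 of them lower, beside 124 of 24816 over all genes. Ccr7, the chemokine receptor that guides positively selected cells to the medulla, had 172, 190 and 218 CPM in CKO cells, against 234, 264 and 256 CPM in WT cells (-0.38 ± 0.08, adjusted p = 0.0959). Klf2, which switches on the exit receptor S1pr1, had 77.9, 90.5 and 84.7 CPM in CKO cells, against 116, 112 and 97.5 CPM in WT cells (-0.36 ± 0.07, adjusted p = 0.0980). Btg1, an antiproliferative gene of resting lymphocytes, had 466, 453 and 451 CPM in CKO cells, against 557, 567 and 513 CPM in WT cells (-0.26 ± 0.05, adjusted p = 0.0665). All 8 tested Gimap genes, GTPases of lymphocyte survival, had negative estimates, with a median of -0.21 and none called by edgeR. Of these, 5 had an unadjusted p under 0.05 (5.37% of all genes tested). DESeq2 called 2 of the Gimap genes lower, beside the same 124 of 24816 over all genes. Gimap6, for example, had 167, 159 and 161 CPM in CKO cells, against 185, 190 and 182 CPM in WT cells (-0.19 ± 0.04, adjusted p = 0.130).

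Genes of the DP stage leaned the other way. Of 21 tested, none was called by edgeR and the median was 0.10. At an unadjusted p under 0.05, 9 had a positive (5.01% of all genes tested) and 3 a negative estimate (5.37%). DESeq2 called 4 higher and 2 lower, beside 84 higher and 124 lower of 24816 over all genes. Cd4 had 45.8, 55.8 and 44.8 CPM in CKO cells, against 36.6, 39.0 and 36.5 CPM in WT cells (0.38 ± 0.09, adjusted p = 0.135). Rag2, the partner of Rag1, had 32.7, 31.0 and 31.7 CPM in CKO cells, against 26.5, 26.0 and 26.2 CPM in WT cells (0.28 ± 0.07, adjusted p = 0.156). Both were above every WT library in every CKO library. In the other direction, Lef1, a transcription factor of early thymocytes, had 362, 389 and 369 CPM in CKO cells, against 399, 459 and 459 CPM in WT cells (-0.23 ± 0.06, adjusted p = 0.168). The stage markers and the interferon genes thus leaned in the same libraries, and the part of cell composition in the interferon result was not tested.

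Cycle genes had small positive estimates. Of 32 tested mitosis genes, 31 were positive, beside 7341 of 14911 over all genes. At an unadjusted p under 0.05 were 19 of them, all positive (5.01% of all genes tested). The median was 0.11 and none was called by edgeR or DESeq2. Kif4, a spindle midzone motor, had 160, 165 and 172 CPM in CKO cells, against 144, 149 and 150 CPM in WT cells (0.17 ± 0.05, adjusted p = 0.205). The 30 tested replication genes had a median of 0.03 and none was called by edgeR. Of the 30, 3 had an unadjusted p under 0.05, all positive (5.01% of all genes tested). Ribosome biogenesis genes had small negative estimates instead: 31 of 32, beside 7570 of 14911 over all genes. At an unadjusted p under 0.05 were 13 of them, all negative (5.37% of all genes tested). The median was -0.11 and none was called by edgeR or DESeq2. Fbl, the methyltransferase of box C/D snoRNPs, had 116, 121 and 135 CPM in CKO cells, against 139, 146 and 138 CPM in WT cells (-0.19 ± 0.06, adjusted p = 0.283).

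Effector and cytotoxic genes mostly had negative estimates. Of 27 tested, none was called by edgeR, 19 had negative estimates, 4 of them at an unadjusted p under 0.05 (5.37% of all genes tested). The median was -0.20. Id2, a regulator of effector CD8 cells, had 51.7, 47.1 and 45.4 CPM in CKO cells, against 59.3, 60.6 and 56.9 CPM in WT cells (-0.29 ± 0.06, adjusted p = 0.130). Nkg7, a cytotoxic granule protein, had 45.6, 41.8 and 40.7 CPM in CKO cells, against 49.2, 51.0 and 50.6 CPM in WT cells (-0.23 ± 0.06, adjusted p = 0.211). Klrg1, a receptor of terminal effector cells, held 3 counts over the CKO libraries and 1 over the WT libraries, too few to test. Of 18 tested receptors and signal genes of the common gamma chain cytokines, none was called by edgeR and the median was -0.11. Among them 4 had an unadjusted p under 0.05, all negative (5.37% of all genes tested). Il4ra, the interleukin-4 receptor alpha chain, had 79.0, 80.0 and 80.6 CPM in CKO cells, against 93.5, 92.7 and 93.6 CPM in WT cells (-0.22 ± 0.05, adjusted p = 0.0999). T cell receptor signalling genes (30 tested), p53 targets (23) and Bcl2 family genes (15) had medians of -0.01, -0.01 and -0.03. In these lists 1, 2 and 2 genes had an unadjusted p under 0.05, beside 1548 of 14911 over all genes, and none was called by edgeR.

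All 18 tested heat shock and immediate early genes had negative estimates, with a median of -0.21 and none called by edgeR. Of the 18, 6 had an unadjusted p under 0.05 (5.37% of all genes tested, with a negative estimate). Hsph1, a chaperone, had 263, 321 and 434 CPM in CKO cells, against 822, 597 and 460 CPM in WT cells (-0.89 ± 0.20, adjusted p = 0.131). Its values spread over a wide range within each genotype. These genes also answer to handling of cells, which was not recorded in the sources used here, and without WT 1 the median of the list was -0.07. Of 27 tested cholesterol genes, 21 had positive estimates, none was called by edgeR and the median was 0.07. At an unadjusted p under 0.05 were 4 positive (5.01% of all genes tested) and 1 negative (5.37%).

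The same genes were then read in the other sorted populations, each tested on its own 6 libraries. The counts of thymus DP and CD4 SP cover 21983 gene symbols and those of the other populations 46095. A gene may therefore not be counted alike across them. In thymus DP 0.0172% of genes were called higher and 0.00860% lower, in spleen CD4 8.53% and 5.63%, and in spleen CD8 9.83% and 6.22%. In thymus DP cells Prmt5 had 30.3 to 31.1 CPM in CKO and 59.9 to 69.7 CPM in WT libraries (-1.09 ± 0.09, adjusted p = 8.5e-04). In spleen CD8 cells it had 29.1 to 41.6 CPM in CKO and 61.1 to 67.04 CPM in WT libraries (-0.87 ± 0.12, adjusted p = 8.3e-04). The drop in thymus CD8 SP was smaller than both: the difference of the genotype effects was 0.78 ± 0.10 against DP (adjusted p = 0.0082) and 0.56 ± 0.13 against spleen CD8 (adjusted p = 0.0158). Over all genes, 4 of 12390 had a positive difference against DP (0.0323%) and 1 a negative one (0.00807%). Against spleen CD8, 405 of 15544 had a positive difference (2.61%) and 851 a negative one (5.47%). Xist was at 943 CPM or more in every spleen CD8 library of either genotype, so sex was not mixed there.

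Oas2 had the opposite sign in the spleen: 0.86 ± 0.24 in spleen CD8 (adjusted p = 0.0306) and 0.96 ± 0.22 in spleen CD4 (adjusted p = 0.0123). The effects of Oas2 in thymus CD8 SP and spleen CD8 differed by -1.38 ± 0.29 (adjusted p = 0.0078), and those of Oas3 by -0.82 ± 0.19 (adjusted p = 0.0156). The fall of the oligoadenylate synthetases was thus not shared with spleen CD8 cells. Some other genes with negative estimates here were called lower in spleen CD8, such as B2m (-0.30 ± 0.07, adjusted p = 0.0178) and H2-T23 (-0.35 ± 0.10, 0.0312). Ccr7 (-0.69 ± 0.12, 0.0030), Klf2 (-0.31 ± 0.07, 0.0107) and Btg1 (-0.42 ± 0.08, 0.0063) were called lower there too. Irf7 (0.01 ± 0.14) and Ifi203 (-0.13 ± 0.10) were not called there, and Id2 was called higher (0.44 ± 0.13, 0.0425).

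Tmie fell in spleen CD8 by nearly the same amount (-0.73 ± 0.12, adjusted p = 0.0027), and the 2 effects differed by 0.02 ± 0.17. Tspan9 fell in spleen CD8 (-0.82 ± 0.17, adjusted p = 0.0087) and Btbd11 in spleen CD4 (-0.58 ± 0.09, adjusted p = 0.0021). Pdlim4 rose more in spleen CD8, to 1.66 to 4.58 CPM in CKO against 0.343 to 0.372 CPM in WT libraries (3.01 ± 0.44, adjusted p = 0.0012), and the difference of effects was -2.25 ± 0.43 (adjusted p = 0.0045). Mbnl1 rose in thymus DP as well, to 678 to 695 CPM in CKO against 450 to 484 CPM in WT libraries (0.56 ± 0.06, adjusted p = 0.0082), and was at -0.02 ± 0.06 in spleen CD8. Gm33707 had 43.6 to 69.3 CPM in spleen CD4 CKO libraries, against 0 to 0.0372 CPM in WT libraries, and 3 counts over the spleen CD8 CKO libraries against 2 over the WT libraries. In thymus CD4 SP the called genes tested there had an adjusted p of 0.958, with wide ranges between libraries.

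**Figure D4:**
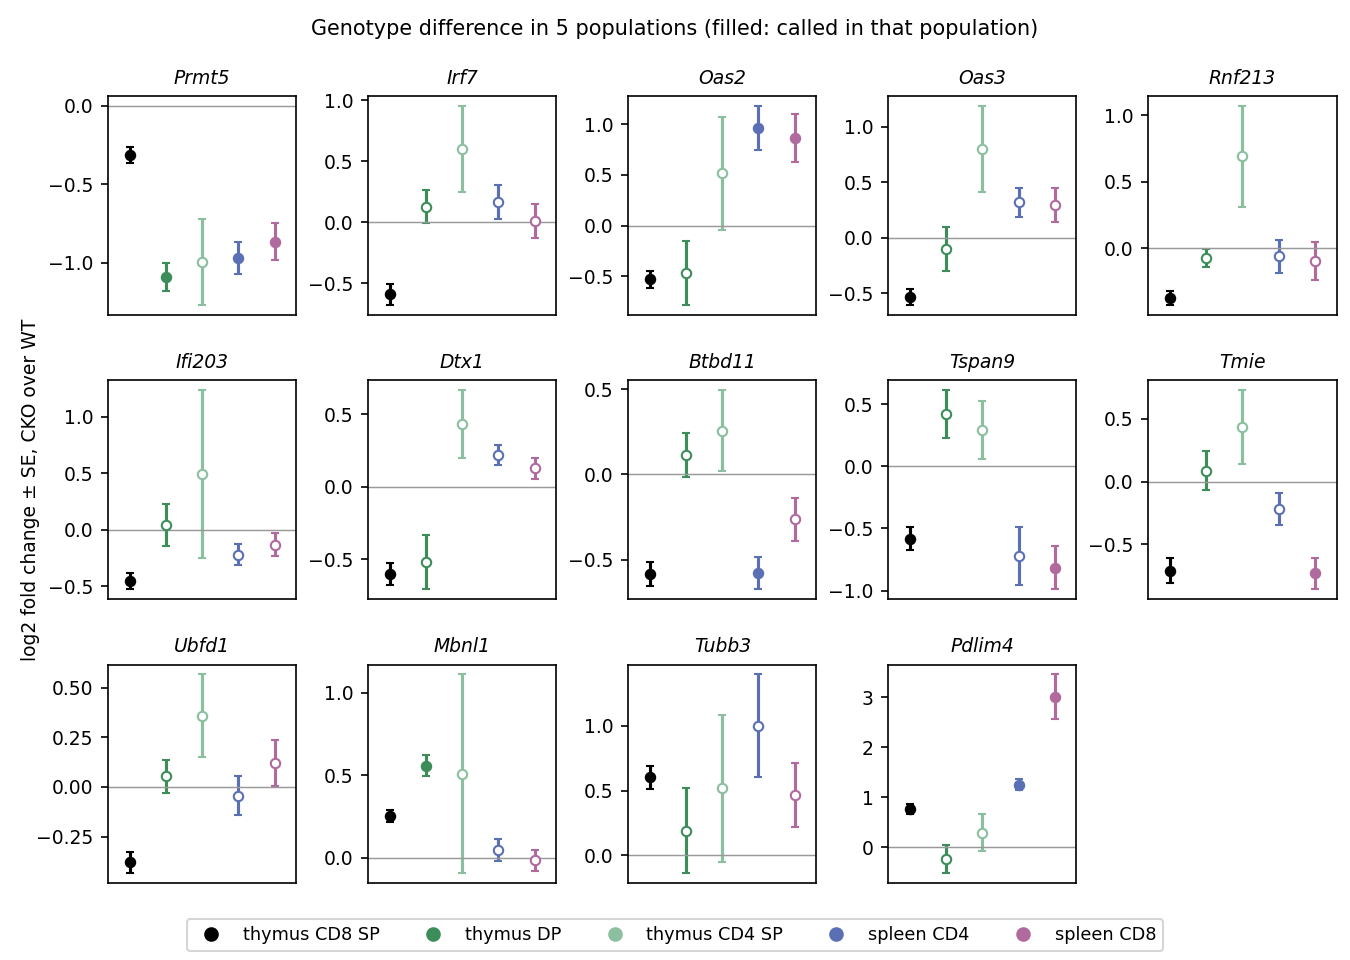
Log2 fold change of CKO over WT with its SE for 14 called genes in the 5 sorted populations, each tested on its own libraries, with filled points where the gene was called in that population. Oas2 has opposite signs in thymus CD8 SP and spleen, and Prmt5 drops least in thymus CD8 SP.

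The called genes kept their direction in all alternative fits in which they were estimated, although few calls survived a loss of samples or a sex term. No called gene overlapped between the genotypes in these same libraries, so a kept direction adds no independent support. The range of Oas3 was -0.60 to -0.48, that of Dtx1 -0.67 to -0.52 and that of Prmt5 -0.36 to -0.29. With sex as a covariate, which leaves the genotype effect to rest on CKO 1 against the WT mice, Oas3 had an adjusted p of 0.187 and Dtx1 of 0.237.

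**Figure D5:**
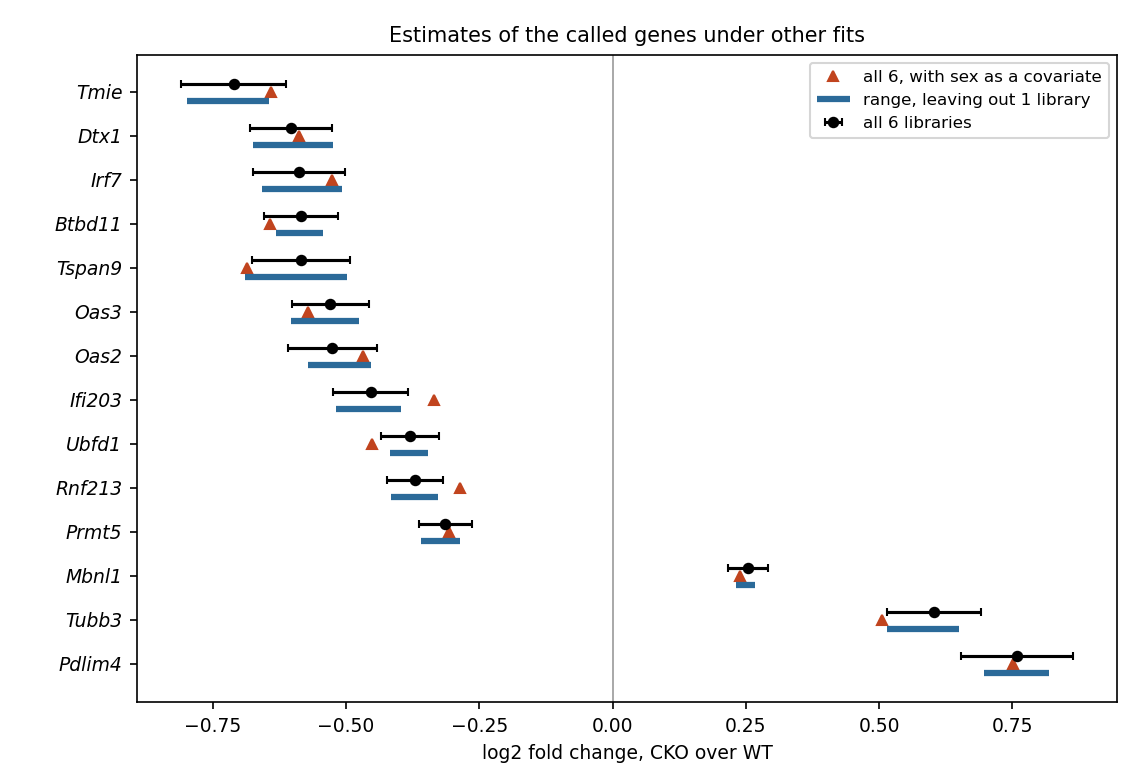
Log2 fold change of CKO over WT for 14 called genes in thymus CD8 SP, with its SE for all 6 libraries (circles), the estimate with sex as a covariate (triangles) and the range over fits that leave out 1 library (bars). No gene crosses 0 in any of these fits, which is no independent support, as none of them overlapped between the genotypes. Ifi203 and Rnf213 move most toward 0 with sex as a covariate.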

How the data were processed

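Per the labels' protocols, cells were sorted, RNA was taken up in Trizol and poly(A) libraries were made with a directional kit. The authors deposited raw read counts per gene. Per the submitters' processing notes the tools were HISAT2 and HTSeq on GRCm38. Versions, gene models and whether strand was used in counting: not given in the sources used here. Where strand was ignored, a gene and its antisense partner cannot be told apart. Positions are those of RefSeq for GRCm38.p6, matched by symbol (14412 of 14911 tested genes).

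Counts were tested with edgeR 4.0.16 in R 4.3.3 (filterByExpr with a minimum count of 10, TMM scaling, quasi-likelihood test, Benjamini-Hochberg adjustment over all genes tested, threshold 0.05). Differences of genotype effects were interaction contrasts over 12 libraries, also fitted across all genes. CPM uses TMM-scaled library sizes, and 10 counts in the shallowest library equal 0.348 CPM before that scaling. No count column lacked a sample. No pair of libraries within a genotype agreed within sampling noise. Each SE is the fitted log2 value over the root of its F statistic. The p-values measure the spread between mice, and sex was read from Xist and Ddx3y.

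The members, gene lists and alternatives were chosen with earlier results of these data known. The rule names Prmt5, every called gene (unnamed models only within 1 Mb of a called gene), 8 fixed genes, and of each list all called members and up to 4 with the smallest p. Some genes that the rule names, 1 of the called genes among them, are counted in the totals and not reported here. Genes such as Stat2, Irf9, Mx1, Ptcra and Wdr77 were added outside it, with their values known. On simulated counts for the 6 libraries, with 14640 genes, the test recovered 68.8% of simulated log2 changes of 1 and 52.1% of those of 0.5, and 8.66% of calls were false. The alternatives tried were DESeq2 1.42.0, edgeR with size factors from DESeq2, voom with quality weights in limma 3.58.1, no filter, at least 5 CPM in 3 libraries, each library left out, the replicate number as a block, sex as a covariate and, added after seeing the data, male libraries only.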

Additional observations from a re-analysis of the deposited data

Results flagged for a closer look

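The genotype effect of 9 named genes differed between thymus CD8 SP and another population by the test of the difference itself. Against spleen CD8, the log2 fold change of CKO over WT differed by -0.73 for Dtx1 (adjusted p = 8.6e-04), by -1.38 for Oas2 (0.0078), by -0.82 for Oas3 (0.0156), by -2.25 for Pdlim4 (0.0045) and by 0.56 for Prmt5 (0.0158). These 5 calls remained in all 12 fits that each left out 1 library. The difference was 0.27 for Mbnl1 (adjusted p = 0.0360), -0.50 for Ubfd1 (0.0279) and 6.77 for Gm33707 (0.0377), and these calls remained in 2, 5 and 5 of the 12 fits. For Mbnl1 they remained without spleen CD8 CKO 72 and without spleen CD8 WT 70 alone (adjusted p up to 0.0971 otherwise). For Ubfd1 they were lost without thymus CD8 SP CKO 1, CKO 2, WT 1 or WT 2 and without spleen CD8 CKO 72, WT 70 or WT 71 (up to 0.0680). For Gm33707, which had 3 counts in spleen CD8 CKO and 2 in spleen CD8 WT libraries, they were lost without any thymus CD8 SP library except WT 1 and without spleen CD8 WT 67 or WT 71 (up to 0.163).

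Against thymus DP, the difference was 0.78 for Prmt5 (adjusted p = 0.0082), which remained in all 12 fits, and 3.05 for Kifc1 (0.0296), which remained in 3 of 12: those without thymus CD8 SP CKO 2, thymus CD8 SP WT 2 or thymus DP WT 15 (up to 0.130 otherwise). The split of reads between Kifc1 and its paralog Kifc5b is uncertain. Kifc1 had 90.4 to 141 CPM in WT DP libraries and 1.76 to 3.83 CPM in WT CD8 SP libraries. DP counts cover 21983 gene symbols and CD8 SP counts 46095, so Kifc1 may not be counted alike in both.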

How the results depend on the processing

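Depth was similar across the 6 libraries, and the number of mice and their mixed sexes limit the precision. DESeq2 called 84 genes higher and 124 lower in CKO cells, and edgeR without a filter 180 and 270, both over 24816 genes. With at least 5 CPM in 3 libraries 3 genes were called higher. With sex as a covariate 2 were called higher and 1 lower, and with male libraries only 4 and 4 (1 CKO mouse, assumed to vary like the WT mice). Leaving out 1 library gave 1 to 11 genes higher and 0 to 40 lower. The cause of these shifts was not tested. WT and CKO libraries with the same number had correlated deviations of 0.119, 0.145 and 0.0529, against -0.128 to 0.00446 for other numbers, each correlating best with its own number. That is a hint from the data and no pairing, and the replicate block gave 4 higher and 14 lower. All 17 called genes kept their direction wherever they were estimated, which their lack of overlap between the genotypes in these same libraries leads to.

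Estimates reversed for Cd8a (-0.029 and -0.024 with sex as a covariate and with male libraries, -0.048 to 0.078 leaving out 1 library), Xist (-0.036 and -0.037), Ddx3y (0.036 and 0.041) and Mbnl3 (-0.0073 and -0.0028). Against spleen CD8, the number of genes with a positive difference was 643 without a filter and 231 to 529 leaving out 1 library. Against thymus DP, 54 positive and 50 negative differences were called with DESeq2 and 7 and 8 without a filter, and leaving out 1 library gave 2 to 182 positive and 1 to 30 negative. Differences near 0 changed sign when 1 library was left out: against spleen CD8, Tmie (-0.064 to 0.13) and Tubb3 (-0.076 to 0.35), and against thymus DP, Dtx1 (-0.24 to 0.093) and Oas2 (-0.28 to 0.25). That of Kifc1 against spleen CD8, at -0.52 ± 1.18 with all libraries, ranged from -4.57 to 0.094. Kifc1 held 48 counts over the spleen CD8 CKO libraries and 5 over the WT libraries, so this difference is poorly estimated.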

Other observations

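Among genes with a mean of at least 1 CPM in either genotype, 34 had an absolute log2 fold change over 1 without overlap between the genotypes. Of these, Kifc1 and Gm33707 alone were called. Over all genes tested, 7.74% lay above and 7.68% below WT in CKO libraries without overlap, at any fold change. On chromosome 16, Slc25a1, the mitochondrial citrate carrier, had 1.04, 1.60 and 1.25 CPM in CKO cells, against 0.122, 0.351 and 0.204 CPM in WT cells (2.49 ± 0.44, adjusted p = 0.0665). Mrpl40, a protein of the mitochondrial ribosome on the same chromosome, had 0.449, 0.430 and 0.556 CPM in CKO cells, against 3.50, 1.23 and 1.98 CPM in WT cells (-2.22 ± 0.41, adjusted p = 0.0755). On chromosome 2, Cdk5rap1, a tRNA-modifying enzyme, had 28.2, 17.4 and 14.4 CPM in CKO cells, against 40.6, 46.9 and 37.3 CPM in WT cells (-1.05 ± 0.19, adjusted p = 0.0755). Immunoglobulin kappa variable segments on chromosome 6, such as Igkv10-94, were also lower in estimate, at 0.674, 0.645 and 0.695 CPM in CKO cells, against 2.25, 2.95 and 1.63 CPM in WT cells (-1.76 ± 0.30, adjusted p = 0.0634). These genes were picked out after their values were seen.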
